A study of Homo sapiens with 8 samples.

Results

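Keratins are the intermediate filament proteins of epithelial cells, and 7 of them were followed here in 143B cells, a human osteosarcoma line. The members were chosen by name, with earlier results of these data known. KRT7, KRT8, KRT18 and KRT19 were taken as the keratins of simple, single-layered epithelium. KRT5, KRT14 and KRT17 were taken as those of the basal layer of stratified epithelium. All 7 matched a gene among the 21123 in the deposited table, and all 7 passed the filter on low values, which 13495 genes did. RNA had been sequenced from 4 groups of 2 libraries, each labelled as a biological replicate. The groups were cells stably expressing an shRNA against ZDHHC8 and given cisplatin, control-shRNA cells given cisplatin, ZDHHC8-shRNA cells given vehicle (PBS in the labels), and control-shRNA cells given vehicle. Treatment lasted 48 h in every group, no source used here gives the cisplatin dose, and all libraries carry the same batch number. ZDHHC8 encodes a palmitoyltransferase, cisplatin is a platinum drug that crosslinks DNA, and the labels call the control-shRNA cells wild type. The labels name no clone of either line, so a difference between the lines and an effect of the shRNA cannot be told apart.

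Keratin filaments are built from obligate pairs of a type I (acidic) and a type II (basic) protein. KRT8 (type II) and KRT18 (type I) form the founding pair of simple epithelia, KRT7 (type II) and KRT19 (type I) join them in glandular and ductal cells, and KRT5 (type II) pairs with KRT14 (type I) in dividing basal keratinocytes. KRT17 is a type I keratin of basal cells and skin appendages that is induced in wounded epidermis. The type II genes lie in a cluster on chromosome 12 together with KRT18, and the other type I genes lie in a cluster on chromosome 17. Bone cells are not known for keratin filaments, although some sarcomas and sarcoma lines stain for keratins.

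Levels are given as FPKM, a fragment count scaled by gene length and library size, which can be compared between genes. The unit is not named in the table and was inferred from its values, and the read depth behind a value is unknown. Changes are differences of mean log2(FPKM + 1) with their standard error (SE) from limma, and the added 1 makes changes of low genes look smaller than they are. A gene was called higher or lower where limma's p was below 0.05 after Benjamini-Hochberg adjustment across all 13495 genes that entered the fit. These p-values measure the spread between 2 labelled replicates a group, and that spread may be technical. In bulk RNA, fewer cells of a type and less RNA per cell cannot be told apart. Column totals were 384281 to 391016 FPKM in the 4 shZDHHC8 libraries, above the 361060 to 369660 FPKM of the 4 shControl libraries, and Pearson's r of log2 values was 0.995 to 0.996 within groups across the tested genes. ZDHHC8 itself was at 14.3 and 9.81 FPKM in shZDHHC8 cells and 23.7 and 23.1 FPKM in shControl cells with vehicle (log2 change -0.92 ± 0.13 (SE), limma adjusted p = 0.000472). Under cisplatin it was at 23.5 and 22.3 FPKM in shZDHHC8 cells, against 32.3 and 32.8 FPKM in shControl cells (log2 change -0.49 ± 0.13 (SE), limma adjusted p = 0.0102), a call that ended without shZDHHC8 cisplatin replicate 2 (-0.46, limma adjusted p = 0.0558).

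The labelled cell type was checked against its markers. Of 12 osteoblast markers, 8 were in the table and 4 passed the filter. The matrix protein SPP1 averaged 167 FPKM over the 8 libraries, the lineage factor RUNX2 10.97 FPKM, SPARC 6.86 FPKM and COL1A1 3.10 FPKM. Osteocalcin (BGLAP) averaged 0.152 FPKM and COL1A2 0.417 FPKM. The summed level of the 8, most of it SPP1, was 221 to 224 FPKM in shZDHHC8 cells with cisplatin, 72.3 to 78.9 in shControl cells with cisplatin, 283 to 298 in shZDHHC8 cells with vehicle and 163 to 171 in shControl cells with vehicle. Of 15 epithelial markers other than keratins, all were in the table and 9 passed. The protease inhibitor SPINT2 averaged 121 FPKM and EPCAM 4.35 FPKM, while E-cadherin (CDH1) averaged 0.122 FPKM and reached at most 0.392. The sum of the 15 was 178 to 182 FPKM in shZDHHC8 cells with cisplatin, 150.2 to 152 in shControl cells with cisplatin, 229 to 235 in shZDHHC8 cells with vehicle and 238 to 243 in shControl cells with vehicle. The leukocyte markers PTPRC, LYZ and CD3E stayed at or below 0.142 FPKM, with CD3E at 0 throughout, and VWF of endothelium at or below 0.118 FPKM. The lysosomal protein CD68, also on the leukocyte list, ran from 14.5 to 68.7 FPKM and was higher in the knockdown by 1.46 in vehicle and 1.96 under cisplatin (limma adjusted p = 2.82e-06 and 5.85e-07). The part of these marker levels in the keratin results was not tested. The cells thus held keratin RNA and part of an epithelial marker set beside SPP1 and RUNX2, with CDH1 near 0.

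The simple keratins were the abundant ones in every group. In shControl cells with vehicle KRT8 averaged 649 FPKM, the 40th highest level in the table, followed by KRT7 at 362, KRT18 at 168 and KRT19 at 115. KRT5 at 73.5, KRT17 at 27.1 and KRT14 at 10.1 FPKM came next, so every simple keratin lay above every basal one. That order of the 4 simple keratins held in all 4 groups. Among the basal keratins it changed: KRT17 lay above KRT5 in both cisplatin groups and below it in both vehicle groups, with KRT14 lowest throughout. In no group did the 2 libraries of one keratin overlap those of its neighbour in the order.

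The sequences upstream of 1 basal and 1 simple type II gene are shown because KRT5 had the largest change with cisplatin of the 7 and KRT8 is the most abundant of them. Each runs from 250 bases before to 50 bases after an annotated gene start, from RefSeq on GRCh38.p14, the KRT5 window at chr12:52520345-52520644 on the minus strand and the KRT8 window at chr12:52926420-52926719 on the minus strand. KRT8 has several annotated starts, and its window belongs to 1 of them, inside the deposited span of the gene (52897187 to 52949954). Which start these cells use was not determined. Promoters of these 2 members were matched, and KRT7, KRT14, KRT17, KRT18 and KRT19 were not. Capitals mark matches to a p53 family half-site and to the TATA-like ATAAAA.
KRT5: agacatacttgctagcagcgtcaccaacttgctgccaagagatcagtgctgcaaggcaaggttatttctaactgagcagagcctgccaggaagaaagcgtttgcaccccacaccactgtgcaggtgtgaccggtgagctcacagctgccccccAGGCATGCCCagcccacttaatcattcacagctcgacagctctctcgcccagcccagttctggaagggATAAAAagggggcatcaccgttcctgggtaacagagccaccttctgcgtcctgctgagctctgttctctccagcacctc
KRT8: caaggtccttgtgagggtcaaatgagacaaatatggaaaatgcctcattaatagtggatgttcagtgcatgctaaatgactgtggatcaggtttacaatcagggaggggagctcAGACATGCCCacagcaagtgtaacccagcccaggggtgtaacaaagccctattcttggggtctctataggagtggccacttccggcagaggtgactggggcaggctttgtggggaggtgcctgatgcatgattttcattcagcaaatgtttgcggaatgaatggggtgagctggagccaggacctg

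In the KRT5 window the half-site lies 97 to 88 bases before the start and ATAAAA 29 to 24 bases before it, and in the KRT8 window the half-site lies 136 to 127 bases before the start. Each half-site reads as a match on both strands, and the 2 motifs do not overlap. Of 34943 such windows, 6.64% hold a p53 family half-site on either strand and 9.48% hold ATAAAA on the gene's strand. The AP-1 motif TGANTCA (7.72% of windows), the SP1 motif GGGCGG (44.9%) and the TCF/LEF motif CTTTGAT (2.63%), searched on both strands, were in neither. These motifs were picked with the sequences at hand, and a match describes letters in the window.

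The comparison of shZDHHC8 with shControl cells in vehicle shows the keratins without drug. Of the 7 keratins 6 fell and none rose, in a comparison where 51.7% of all tested genes were called, 25.0% lower and 26.7% higher. That was 3602 genes higher and 3373 lower as deposited, and 2888 and 4054 after scaling each library to a common total. The basal keratins changed by a median of -2.32 on the log2 scale and the simple ones by -0.55, against 0.015 over all tested genes. KRT18 was the one member without a call.

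KRT17 (ENSG00000128422, chromosome 17, positions 41619442 to 41624842 of hg38) was at 3.11 and 2.97 FPKM in the shZDHHC8 libraries and at 26.9 and 27.3 FPKM in the shControl libraries. Its knockdown level was 11.2% of the control level, and the log2 difference was -2.80 ± 0.06 (SE) at limma adjusted p = 5.71e-08. KRT14 (ENSG00000186847, chromosome 17, positions 41582279 to 41586895) was at 0.964 and 1.51 FPKM, against 10.1 and 10.0 FPKM in shControl cells. The log2 difference was -2.32 ± 0.12 (SE) at limma adjusted p = 2.18e-06, with its 2 knockdown libraries further apart, in proportion, than those of the other members. KRT5 (ENSG00000186081, chromosome 12, positions 52514575 to 52520530) was at 25.2 and 24.8 FPKM, against 74.0 and 73.0 FPKM. It fell by 1.52 ± 0.06 (SE) on the log2 scale (limma adjusted p = 3.95e-07), which left 34.0% of the control level, more than for either type I basal keratin.

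Among the simple keratins, KRT7 (ENSG00000135480, chromosome 12, positions 52232520 to 52252186) was at 230.5 and 233 FPKM in shZDHHC8 cells and 363 and 359.7 FPKM in shControl cells. KRT8 (ENSG00000170421, chromosome 12, positions 52897187 to 52949954) was at 450.4 and 439 FPKM, against 653 and 644 FPKM. KRT19 (ENSG00000171345, chromosome 17, positions 41523617 to 41528308) was at 76.4 and 78.1 FPKM, against 116 and 114 FPKM. These 3 fell by similar amounts, to 64.1%, 68.6% and 67.2% of the control level (log2 changes of -0.64 ± 0.06, -0.54 ± 0.04 and -0.57 ± 0.05 (SE), limma adjusted p = 4.13e-05, 1.22e-05 and 2.52e-05). KRT18 (ENSG00000111057, chromosome 12, positions 52948871 to 52952906), the partner of KRT8, was at 163 and 165 FPKM, against 167 and 168 FPKM. Its log2 change of -0.03 ± 0.04 (SE) did not pass (limma adjusted p = 0.562), although the 2 knockdown libraries lay just below the 2 control libraries.

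**Figure D1:**
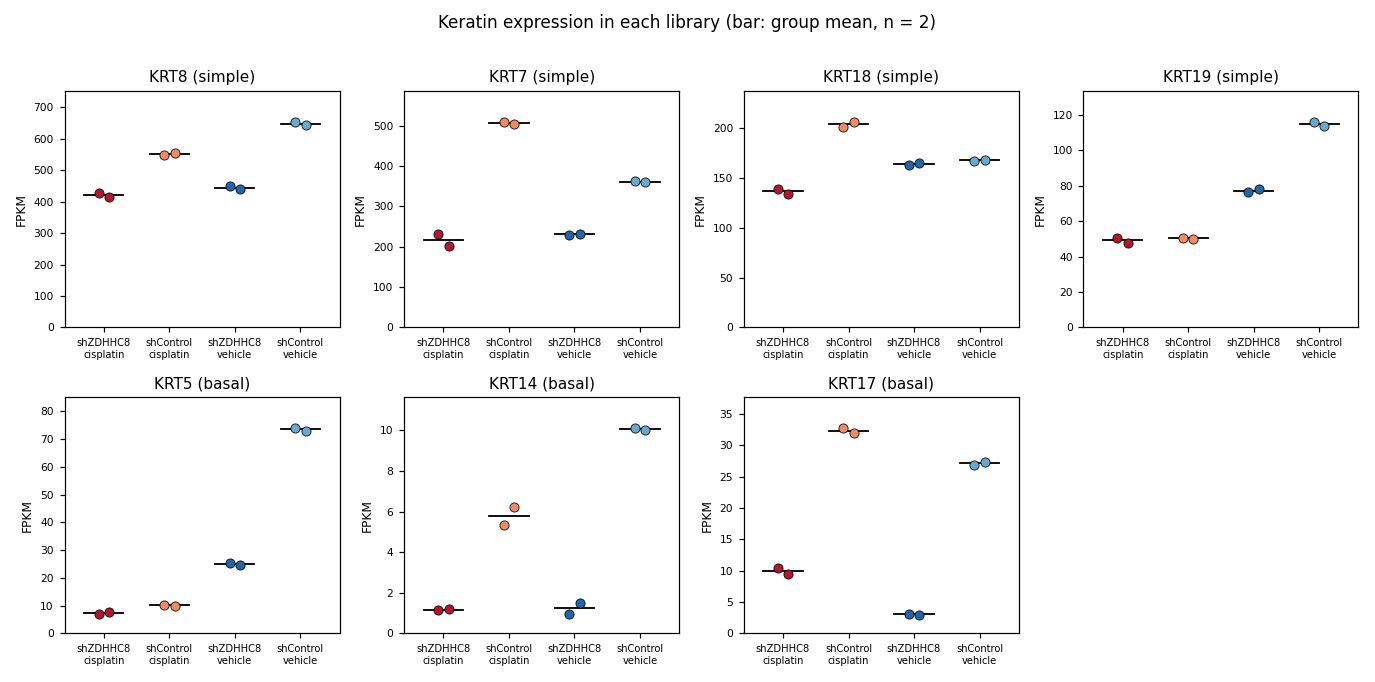
FPKM of each keratin (y axis, starting at 0, own scale per gene) in the 2 libraries (points) of each group, with the group mean as a bar. In vehicle every keratin but KRT18 is clearly lower in shZDHHC8 than in shControl cells, and KRT5 is at 10.4 FPKM or less in all 4 cisplatin libraries.

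Under cisplatin the knockdown was again set against the control shRNA. Here 6 of 7 keratins fell and none rose, where 61.4% of tested genes were called, 27.6% lower and 33.8% higher. That was 4561 higher and 3720 lower as deposited, 3701 and 4619 with a common total, and 3708 and 4577 with median-of-ratios scaling. The medians were -1.61 for the basal and -0.48 for the simple keratins, against 0.042 over all tested genes. The member without a call was now KRT19, not KRT18.

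KRT17 was at 10.5 and 9.41 FPKM in shZDHHC8 cells, against 32.7 and 31.9 FPKM in shControl cells (log2 change -1.61 ± 0.06 (SE), limma adjusted p = 4.99e-07). KRT14 was at 1.16 and 1.18 FPKM, against 5.34 and 6.24 FPKM (-1.64 ± 0.12 (SE), limma adjusted p = 8.23e-06). KRT5 was low in both lines, at 7.13 and 7.83 FPKM against 10.4 and 10.0 FPKM, and the remaining difference passed (-0.40 ± 0.06 (SE), limma adjusted p = 0.000319). The largest drop among the simple keratins was that of KRT7, at 232 and 203 FPKM against 509 and 504 FPKM (-1.22 ± 0.06 (SE), limma adjusted p = 1.17e-06). KRT18 was at 139 and 134 FPKM, against 201 and 206 FPKM (-0.57 ± 0.04 (SE), limma adjusted p = 7.4e-06). KRT8 was at 427 and 414 FPKM, against 549 and 555 FPKM (-0.39 ± 0.04 (SE), limma adjusted p = 4.8e-05). The KRT19 libraries of the 2 lines overlapped, at 50.8 and 47.5 FPKM in shZDHHC8 cells and 50.8 and 50.04 FPKM in shControl cells (-0.04 ± 0.05 (SE), limma adjusted p = 0.526). With a common total KRT19 passed as lower, at -0.13 (limma adjusted p = 0.0294), as it did with median-of-ratios scaling (-0.13, limma adjusted p = 0.034).

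Given to shControl cells, cisplatin separated the keratins rather than moving them together. All 7 were called, 3 higher and 4 lower, where 62.2% of tested genes were called (36.8% higher and 25.4% lower). The division did not follow the classes: KRT7, KRT18 and KRT17 rose, while KRT5, KRT14, KRT19 and KRT8 fell. The medians were 0.024 for the simple and -0.71 for the basal keratins, against 0.070 over all tested genes.

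KRT5 had the largest change, at 10.4 and 10.0 FPKM with cisplatin against 74.0 and 73.0 FPKM with vehicle, a 7.21-fold lower mean level (log2 change -2.74 ± 0.06 (SE), limma adjusted p = 2.63e-08). Its partner KRT14 was at 5.34 and 6.24 FPKM, against 10.1 and 10.0 FPKM (-0.71 ± 0.12 (SE), limma adjusted p = 0.000844). KRT19 was at 50.8 and 50.04 FPKM, against 116 and 114 FPKM (-1.17 ± 0.05 (SE), limma adjusted p = 3.76e-07), and KRT8 was lower by less, at 549 and 555 FPKM against 653 and 644 FPKM (-0.23 ± 0.04 (SE), limma adjusted p = 0.000919). Of the keratins that rose, KRT7 was at 509 and 504 FPKM with cisplatin, against 363 and 359.7 FPKM with vehicle (0.49 ± 0.06 (SE), limma adjusted p = 0.000119). KRT18 was at 201 and 206 FPKM, against 167 and 168 FPKM (0.28 ± 0.04 (SE), limma adjusted p = 0.000353). KRT17 was at 32.7 and 31.9 FPKM, against 26.9 and 27.3 FPKM (0.25 ± 0.06 (SE), limma adjusted p = 0.00818). Cisplatin and vehicle libraries did not overlap for any of the 7. The share of all tested genes without such an overlap was not determined, so this separation shows nothing particular to the keratins.

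In shZDHHC8 cells cisplatin changed fewer of the keratins in the values as deposited, while KRT7 and KRT8 also passed with median-of-ratios scaling. Of the 7 members 1 rose and 3 fell, where 50.5% of tested genes were called, 36.9% higher and 13.6% lower. That was 4976 higher and 1841 lower as deposited, and 2924 and 3073 with median-of-ratios scaling. The median of all tested genes was 0.13 in this comparison as deposited and 0.0037 with median-of-ratios scaling, so a change near 0.13 stands at the middle of all genes. The simple keratins had a median of -0.18 and the basal ones of -0.032. The difference between those medians, -0.15, took the opposite sign without shZDHHC8 vehicle replicate 1 (0.022).

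KRT17 rose 3.27-fold in mean level, at 10.5 and 9.41 FPKM with cisplatin against 3.11 and 2.97 FPKM with vehicle (log2 change 1.44 ± 0.06 (SE), limma adjusted p = 4.16e-06). Even so, both cisplatin libraries stayed below the 26.9 and 27.3 FPKM of shControl cells with vehicle. KRT5 moved the other way, at 7.13 and 7.83 FPKM with cisplatin against 25.2 and 24.8 FPKM (-1.62 ± 0.06 (SE), limma adjusted p = 1.36e-06). KRT14 did not pass, at 1.16 and 1.18 FPKM with cisplatin, within the 0.964 and 1.51 FPKM with vehicle (-0.032 ± 0.12 (SE), limma adjusted p = 0.838). The 3 basal keratins thus did 3 different things in these cells.

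Of the simple keratins KRT19 fell, at 50.8 and 47.5 FPKM with cisplatin against 76.4 and 78.1 FPKM (-0.64 ± 0.05 (SE), limma adjusted p = 2.71e-05). KRT18 fell by 0.26 ± 0.04 (SE) on the log2 scale, at 139 and 134 FPKM against 163 and 165 FPKM (limma adjusted p = 0.00091). KRT7 was at 232 and 203 FPKM, against 230.5 and 233 FPKM, and did not pass (-0.095 ± 0.06 (SE), limma adjusted p = 0.208). With median-of-ratios scaling KRT7 passed as lower (-0.24, limma adjusted p = 0.00862), as it did without shZDHHC8 cisplatin replicate 1 (-0.19, limma adjusted p = 0.0219), and without replicate 2 it stood at 3.6e-05. KRT8 was at 427 and 414 FPKM, against 450.4 and 439 FPKM, and passed only with median-of-ratios scaling (-0.081 ± 0.04 (SE) as deposited, limma adjusted p = 0.119; -0.23 when scaled, limma adjusted p = 0.00211).

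**Figure D2:**
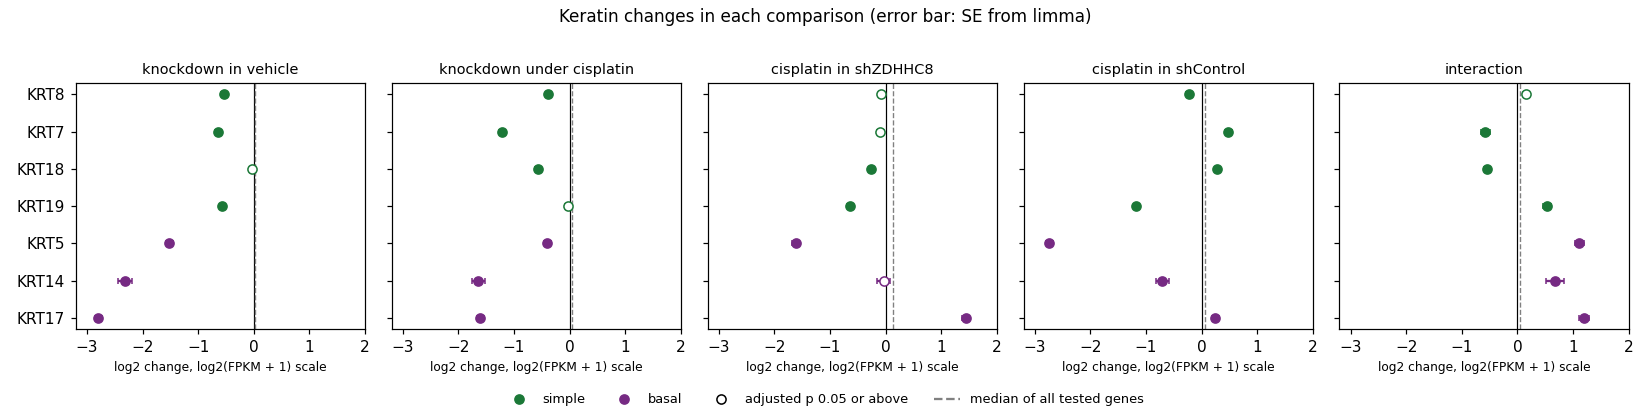
Log2 change of each keratin (x axis, difference of mean log2(FPKM + 1), with SE as a bar) in the 5 comparisons; filled points passed at an adjusted p below 0.05, and the dashed line is the median of all tested genes. All filled points of both knockdown panels lie left of 0, whereas the cisplatin panels hold points on both sides.

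The interaction asks whether the knockdown effect under cisplatin differed from that in vehicle, which is the same as asking whether cisplatin acted differently in the 2 lines. It passed for 6 of 7 keratins, 4 higher and 2 lower, where 30.4% of tested genes passed, 17.0% higher and 13.4% lower. That was 2298 higher and 1806 lower as deposited, and 1710 and 2544 with median-of-ratios scaling. All 3 basal keratins had a positive interaction, that is, a smaller knockdown deficit under cisplatin than in vehicle on the log2 scale. KRT17 had 1.19 ± 0.09 (SE) (limma adjusted p = 9.62e-05) and KRT5 1.12 ± 0.08 (SE) (limma adjusted p = 8.72e-05). KRT14 had 0.67 ± 0.17 (SE) (limma adjusted p = 0.0179). The KRT14 call ended with a pseudocount of 0.1 (0.75, limma adjusted p = 0.0563), and without replicate 1 of shControl vehicle (0.67, limma adjusted p = 0.0518) or of shControl cisplatin (0.58, limma adjusted p = 0.0558). The simple keratins split: KRT19 was positive (0.53 ± 0.07 (SE), limma adjusted p = 0.000917), while KRT7 (-0.58 ± 0.08 (SE), limma adjusted p = 0.0016) and KRT18 (-0.54 ± 0.06 (SE), limma adjusted p = 0.000414) were negative. KRT7 and KRT18 are the 2 simple keratins that rose with cisplatin in shControl cells. KRT8 did not pass (0.15 ± 0.06 (SE), limma adjusted p = 0.0728). ZDHHC8 itself rose with cisplatin, by 0.89 in shZDHHC8 cells and 0.46 in shControl cells (limma adjusted p = 0.000717 and 0.0136). The interaction of ZDHHC8 did not pass (0.43, limma adjusted p = 0.111), and the part of its level in the keratin interactions was not tested.

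With a log2 change of at least 1 also required, fewer keratins were called. In the knockdown with vehicle 3 of 7 keratins were left, where 2.96% of all tested genes met both conditions, and under cisplatin 3 of 7, where 4.46% did. With cisplatin 2 of 7 were left in shZDHHC8 cells (1.49% of all tested genes) and 2 of 7 in shControl cells (5.45%), and the interaction left 2 of 7 (1.96%).

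Contrasting the classes directly, the median change of the simple keratins exceeded that of the basal ones by 1.76 in the knockdown with vehicle, by 1.12 in the knockdown under cisplatin and by 0.73 for cisplatin in shControl cells, on the log2 scale. Over the 4 pairs of a tested and a comparison library these differences ranged from 1.57 to 1.95, from 1.04 to 1.14 and from 0.65 to 0.82. For cisplatin in shZDHHC8 cells the pairs ran from -0.38 to 0.073. The pairs reuse the same 2 libraries of each group, so they show replicate agreement and not the spread among members. The median of the 3 basal keratins is the value of a single gene. That gene was KRT17 in the knockdown under cisplatin and KRT14 in the other comparisons. KRT14 was the lowest member, at 0.964 and 1.51 FPKM in shZDHHC8 cells with vehicle, so the difference of medians rests largely on a weakly expressed gene. By member, the knockdown with vehicle kept the classes apart (basal -2.80 to -1.52, simple -0.64 to -0.030). The classes overlapped in the knockdown under cisplatin (basal -1.64 to -0.40, simple -1.22 to -0.036). They also overlapped for cisplatin in shControl cells (basal -2.74 to 0.25, simple -1.17 to 0.49). As a share of the summed FPKM of the 7 keratins, the basal keratins made up 2.16% and 2.26% in shZDHHC8 cells with cisplatin, 3.56% and 3.54% in shControl cells with cisplatin, 3.09% and 3.10% in shZDHHC8 cells with vehicle, and 7.87% and 7.91% in shControl cells with vehicle. The share was thus highest in untreated control cells and lower with the knockdown, the drug or both. With the drug this did not hold for each basal keratin. KRT5 fell from a mean of 73.5 to 10.2 FPKM in shControl cells and from 25.0 to 7.48 FPKM in shZDHHC8 cells. KRT14 was called lower in shControl cells only, and KRT17 rose in both lines, from 27.1 to 32.3 FPKM and from 3.04 to 9.95 FPKM. The 7 keratins together made up 0.222% and 0.211% of the column total in shZDHHC8 cells with cisplatin, against 0.370% and 0.377% in shControl cells with cisplatin. With vehicle the shares were 0.247% and 0.244% in shZDHHC8 cells, against 0.382% and 0.383% in shControl cells.

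The RNA ratio of filament partners is given for each library, as values with no test of the ratio. KRT8 over KRT18 was 2.77 and 2.66 in shZDHHC8 cells and 3.90 and 3.84 in shControl cells with vehicle. Under cisplatin the order of the lines turned, with 3.07 and 3.09 in shZDHHC8 cells and 2.73 and 2.69 in shControl cells. KRT5 over KRT14 was 6.13 and 6.62 in shZDHHC8 cells with cisplatin and 1.94 and 1.61 in shControl cells with cisplatin. With vehicle it was 26.2 and 16.4 in shZDHHC8 cells, against 7.32 and 7.29 in shControl cells. These ratios do not depend on how the libraries are scaled to each other.

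**Figure D3:**
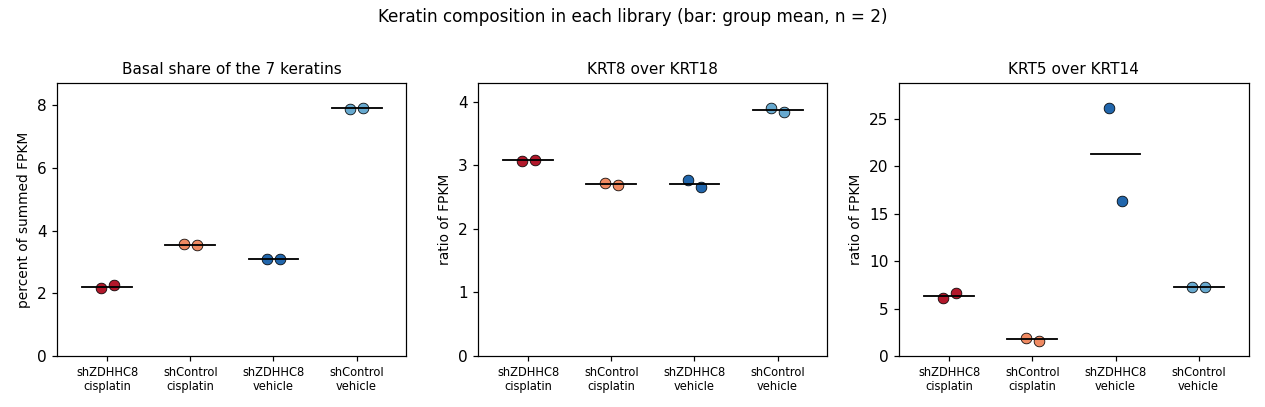
Basal share of the summed FPKM of the 7 keratins in percent (left), KRT8 over KRT18 (middle) and KRT5 over KRT14 (right) in each library (points), with group means as bars and y axes from 0. The basal share is 7.87% and 7.91% in shControl cells with vehicle and at most 3.56% elsewhere, and the KRT5 to KRT14 ratio is widest apart between replicates in shZDHHC8 cells with vehicle.

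Several members share sequence or position with other genes, which limits how exactly reads can be assigned. Of the 50-base stretches in GENCODE 29's first-numbered transcript of each gene, 37.1% of KRT8's and 31.8% of KRT18's also occur in another gene's transcripts. The same holds for 23.8% of KRT14's and 17.4% of KRT17's. The gene sharing most was a pseudogene for KRT8 (KRT8P3), KRT18 (KRT18P11) and KRT17 (KRT17P1), and KRT16 for KRT14. For KRT5 the share was 3.99%, for KRT19 1.79% and for KRT7 0.997%. KRT8 and KRT18 overlap on opposite strands by 1084 bases in the deposited coordinates, and KRT7 overlaps KRT86 on its own strand and KRT7-AS on the other. No source used here says how reads were assigned or whether strand was used. KRT16 did not exceed 0.876 FPKM and KRT86 averaged 0.56 FPKM over the 8 libraries.

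A further 10 keratin genes were in the table and 5 of them were tested, and these did not all follow the members. KRT80, a type II keratin found broadly in epithelia, was the most abundant of them. It was at 43.2 and 43.5 FPKM in shZDHHC8 cells and 85.0 and 83.9 FPKM in shControl cells with vehicle (log2 change -0.95 ± 0.04 (SE), limma adjusted p = 7.81e-07). Under cisplatin it was at 78.3 and 76.9 FPKM in shZDHHC8 cells, against 193 and 194 FPKM in shControl cells (-1.31 ± 0.04 (SE), limma adjusted p = 1.39e-07). KRT80 rose with cisplatin in both lines, by 0.83 in shZDHHC8 cells and by 1.19 in shControl cells (limma adjusted p = 5.64e-06 and 1.62e-07).

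KRT6A, a type II keratin of wounded epidermis, moved in the direction of KRT5. It was at 1.22 and 1.69 FPKM in shZDHHC8 cells and 4.29 and 6.79 FPKM in shControl cells with vehicle (-1.39 ± 0.18 (SE), limma adjusted p = 0.000259), and it fell by 1.88 with cisplatin in shControl cells (limma adjusted p = 2.74e-05). Under cisplatin KRT6A was at 0.352 and 0.537 FPKM in shZDHHC8 cells and 0.786 and 0.697 FPKM in shControl cells, a difference that did not pass (-0.27 ± 0.18 (SE), limma adjusted p = 0.213). KRT15, a type I keratin of basal cells and the hair follicle bulge, went against the basal members. It was at 5.40 and 5.69 FPKM in shZDHHC8 cells and 2.18 and 1.59 FPKM in shControl cells with vehicle (1.19 ± 0.11 (SE), limma adjusted p = 3.62e-05). Under cisplatin KRT15 was at 10.4 and 9.81 FPKM in shZDHHC8 cells, against 1.78 and 1.51 FPKM in shControl cells (2.07 ± 0.11 (SE), limma adjusted p = 1.53e-06). KRT10, the type I keratin of differentiating suprabasal keratinocytes, was higher in the knockdown by 0.44 in vehicle and 0.33 under cisplatin (limma adjusted p = 0.000583 and 0.00206). KRT81, a hair keratin, was lower in the knockdown by -0.87 under cisplatin (limma adjusted p = 0.000132) and by -0.35 in vehicle (limma adjusted p = 0.0212), where the call ended without either shControl vehicle replicate or without shZDHHC8 vehicle replicate 1 (adjusted p = 0.0787, 0.0722 and 0.104).

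**Figure D4:**
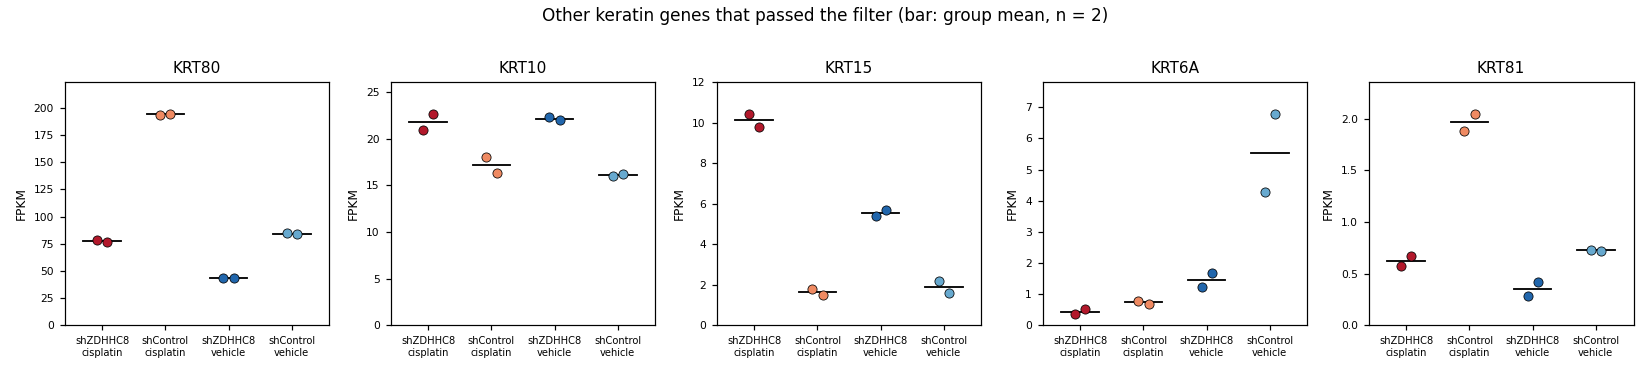
FPKM (y axis, from 0, own scale per gene) of the 5 other keratin genes that passed the filter on low values, in the 2 libraries (points) of each group, with group means as bars. KRT15 and KRT10 are higher and KRT80 and KRT81 lower in shZDHHC8 than in shControl cells of the same treatment, whereas KRT6A passed as lower with vehicle but not under cisplatin.

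Keratin filaments are anchored at desmosomes and hemidesmosomes, and 16 of 19 genes of these junctions were tested. In the knockdown with vehicle 6 were higher and 8 lower, 14 of 16 called where 51.7% of all tested genes were (median -0.21, against 0.015 over all tested genes). Under cisplatin 6 were higher and 3 lower in the knockdown, 9 of 16 called where 61.4% of all tested genes were, which is about the same share (median 0.031, against 0.042). Desmoplakin (DSP), which ties keratins to desmosomes, was at 38.9 and 39.8 FPKM in shZDHHC8 cells and 52.0 and 54.7 FPKM in shControl cells with vehicle (-0.43, limma adjusted p = 0.000106). The desmosomal cadherin DSG2 went the other way, at 59.4 and 63.7 FPKM against 44.6 and 45.6 FPKM (0.44, limma adjusted p = 0.0003). The tetraspanin CD151 and the integrin subunit ITGA6 of hemidesmosomes were higher by 0.17 and 0.20 (limma adjusted p = 0.0222 and 0.00972), calls that ended with a common total (limma adjusted p = 0.149 and 0.0529) and without shControl vehicle replicate 1 (0.0832 and 0.0564); that of CD151 also ended without shControl vehicle replicate 2 or shZDHHC8 vehicle replicate 1 (0.076 and 0.124), and that of ITGA6 without shZDHHC8 vehicle replicate 2 (0.0546). The cytolinker PLEC was at 123 and 101 FPKM in shZDHHC8 cells, with both shControl libraries, at 117 and 118 FPKM, between them. With cisplatin 2 of the 16 were higher and 11 lower in shControl cells, where 62.2% of all tested genes were called (median -0.26, against 0.070). In shZDHHC8 cells 5 were higher and 6 lower with cisplatin, where 50.5% of all tested genes were called, a total of 11 that was 6 to 7 without shZDHHC8 vehicle replicate 1 or either shZDHHC8 cisplatin replicate.

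Transcription factors of epithelial and keratin gene control had 18 of 25 members tested. In the knockdown with vehicle 1 was higher and 10 lower, 11 of 18 called where 51.7% of all tested genes were (median -0.27, against 0.015 over all tested genes). Under cisplatin 5 were higher and 8 lower in the knockdown, 13 of 18 called where 61.4% of all tested genes were (median -0.094, against 0.042). The number called in both directions together was thus not far from the share over all genes in either comparison. By direction, 10 of 18 were lower with vehicle, where 25.0% of all tested genes were, and 1 was higher, where 26.7% were. Under cisplatin the 8 lower and 5 higher stand beside 27.6% and 33.8% of all tested genes. KLF5, a factor of proliferating basal epithelium, was at 25.4 and 26.2 FPKM in shZDHHC8 cells and 47.2 and 44.6 FPKM in shControl cells with vehicle (-0.81, limma adjusted p = 7.7e-06). Under cisplatin KLF5 was at 35.6 and 36.7 FPKM, against 93.0 and 86.7 FPKM (-1.29, limma adjusted p = 6.81e-07). CEBPB was lower in the knockdown by -0.33 in vehicle and by -0.77 under cisplatin (limma adjusted p = 0.00415 and 2.67e-05). ETS1 was lower under cisplatin (-0.86, limma adjusted p = 2.09e-06), where STAT3 was higher (0.40, limma adjusted p = 7.35e-05). NFE2L2 stayed between 53.2 and 58.4 FPKM in all 8 libraries. TP63, the factor that maintains KRT5 and KRT14 in keratinocytes, did not pass the filter on low values. It averaged 0.570 FPKM and ran from 0.158 to 1.48 FPKM over the 8 libraries. With cisplatin 11 members were higher and 3 lower in shZDHHC8 cells, where 36.9% of all tested genes were higher and 13.6% lower (median 0.42, against 0.13). In shControl cells 8 were higher and 5 lower with cisplatin, where 36.8% of all tested genes were higher and 25.4% lower (median 0.12, against 0.070). KLF5 rose in both, by 0.47 and 0.95 (limma adjusted p = 0.000204 and 1.66e-06).

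For each keratin the 3 genes outside the family with the most similar values were found among 3163 tested genes that span at least 1 on the log2 scale, by Pearson's r over the 8 libraries. The 8 points are 4 groups of 2, so a high r mostly means that the group means are ordered and spaced alike. KRT8 lay closest to GTSE1 (0.998), AC245041.1 (0.998) and C3 (0.997), and KRT7 to PATZ1 (0.994), TMEM54 (0.993) and SLC12A7 (0.991). KRT18 lay closest to DMKN (0.984), SIPA1L3 (0.980) and THADA (0.974), and KRT19 to CAV1 (0.999), ZNF395 (0.998) and SLC25A23 (0.997). KRT5 lay closest to ZBED6CL (0.996), L1CAM (0.995) and SLC25A23 (0.995), KRT14 to USP22 (0.994), TEAD2 (0.992) and EDN2 (0.991), and KRT17 to NFKBIZ (0.992), MBD6 (0.988) and LINC01511 (0.983). SLC25A23 appeared for both KRT5 and KRT19, a basal and a simple keratin whose own r was 0.992. KRT8 and its partner KRT18 had an r of 0.589, KRT5 and its partner KRT14 0.576, and KRT8 and KRT14 0.981.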

How the data were processed

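All 8 libraries are columns of a single table that the authors deposited, with gene coordinates on hg38, per the submitters' processing notes. The values are not whole numbers and the column totals are unequal, so the deposited values were taken as FPKM; no source used here names the aligner, the counter or the annotation release. RNA was poly(A)-selected, per the labels' protocols. The worth of a single read was searched for in 1719 weakly expressed lncRNA genes, of which no more than 6 had the same ratio between replicates, so the read depth is unknown and precision comes from replicates alone.

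Values were used as deposited and transformed to log2(FPKM + 1). The test covered the 13495 of 21123 genes that reached 1 FPKM in 2 libraries or more. A single model of 4 group means was fitted to every library with limma 3.58.1 (lmFit, eBayes with an intensity trend; R 4.3.3). Benjamini-Hochberg adjustment ran across all genes tested in a comparison. A count-based test had been planned had the table held counts. The fit was tested on simulated data. Summaries were made in Python 3.11.15.

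The keratins and the gene lists were chosen with earlier results of these data known. Named beside the members are every other tested keratin and, of each list, up to 5 members with the highest mean level, and for each member the 3 genes of most similar pattern; a few genes of the lists are not reported here; further marker genes, KRT16 and TP63 are named for their low level, and the overlapping KRT86 and KRT7-AS for their position. Replicate numbers were checked for pairing: deviations of same-numbered libraries from their group means had correlations of -0.051 to 0.020, and the labels state no shared culture, so no block was used. Alternatives were a pseudocount of 0.1, no filter, common-total and median-of-ratios scaling (over genes above 0 in every library), no trend, the 4 libraries of a comparison alone, a replicate block, a log2 threshold of 1 and each library left out.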

Additional observations from a re-analysis of the deposited data

Results flagged for a closer look

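Keratins whose response to cisplatin differed between shZDHHC8 and shControl cells are collected here; the difference was tested as the interaction in limma, with p-values adjusted over all tested genes. Positive values were found for KRT17 (1.19, limma adjusted p = 9.62e-05), KRT6A (1.12, limma adjusted p = 0.0115), KRT5 (1.12, limma adjusted p = 8.72e-05), KRT15 (0.88, limma adjusted p = 0.00347), KRT14 (0.67, limma adjusted p = 0.0179) and KRT19 (0.53, limma adjusted p = 0.000917). Negative values were found for KRT7 (-0.58, limma adjusted p = 0.0016), KRT18 (-0.54, limma adjusted p = 0.000414), KRT81 (-0.52, limma adjusted p = 0.0292) and KRT80 (-0.36, limma adjusted p = 0.00232). KRT6A and KRT81 lie near 1 FPKM in most libraries, and the KRT81 call ended with a pseudocount of 0.1 (-0.64, limma adjusted p = 0.182) and with any library left out but shZDHHC8 vehicle replicate 1 (-0.56 to -0.45).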

How the results depend on the processing

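Requiring a log2 change of at least 1 left 3 of 7 keratins in each knockdown comparison and 2 in each cisplatin comparison and the interaction, where 1.49% to 5.45% of all tested genes met both conditions. No other alternative, and no library left out, moved a count of called keratins by more than 1.5 times. The replicate block changed no call of a keratin member, with 6, 6, 4, 7 and 6 called in the knockdown in vehicle and under cisplatin, cisplatin in shZDHHC8 and shControl cells, and the interaction. Scaling moved 3 near-zero changes past the threshold: KRT19 in the knockdown under cisplatin (-0.13 with either scaling), and KRT7 (-0.24) and KRT8 (-0.23) for cisplatin in shZDHHC8 cells with median-of-ratios. A pseudocount of 0.1 took the KRT14 interaction to 0.75 without a call, and the difference of medians between simple and basal keratins to 2.40 in the knockdown with vehicle and 1.21 under cisplatin. With each library left out in turn, that difference under cisplatin ran from 1.07 to 1.13, KRT19 in the knockdown under cisplatin from -0.084 to 0.011, KRT7 for cisplatin in shZDHHC8 cells from -0.19 to 3.6e-05, KRT14 there from -0.21 to 0.15, and the KRT14 interaction from 0.50 to 0.85. The cause of these shifts was not tested. The read depth is unknown, so low values such as those of KRT14 in shZDHHC8 cells carry an error that only 2 replicates show.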

Other observations

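Other filament and epithelial genes moved beside the keratins. Vimentin (VIM), the filament protein of mesenchymal cells, was at 1263 and 1281 FPKM in shZDHHC8 cells with cisplatin, against 2110 and 1907 FPKM with vehicle (-0.66, limma adjusted p = 3.89e-05), and it fell by 0.55 in shControl cells (limma adjusted p = 2.84e-05). Lamin B1 (LMNB1), which is lost from senescent cells, was lower in the knockdown with vehicle (-0.74, limma adjusted p = 1.36e-05) and under cisplatin (-0.64, limma adjusted p = 2.06e-05). LMNB1 also fell with cisplatin, by 0.89 in shControl and 0.79 in shZDHHC8 cells (limma adjusted p = 2.61e-06 and 2.09e-05). LMNA was higher in the knockdown with vehicle (0.45, limma adjusted p = 0.00154), and senescence was not tested. Of 8 tested filament genes other than keratins, 3 were higher and 3 lower in the knockdown with vehicle, where 51.7% of all tested genes were called, and 2 and 2 under cisplatin, where 61.4% were. Among 9 tested epithelial markers 2 were higher and 4 lower in the knockdown with vehicle (51.7% of all tested genes called), and 1 was higher and 6 lower with cisplatin in shControl cells (62.2% called). The tight junction gene CLDN4 was at 13.2 and 10.9 FPKM in shZDHHC8 cells with vehicle, against 3.04 and 3.31 FPKM in shControl cells with vehicle (1.64, limma adjusted p = 4.76e-06).

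Of 4 tested squamous and stress keratinocyte genes, 2 were higher and 2 lower in the knockdown with vehicle (51.7% of all tested genes called), a count of 4 that was 2 without shControl vehicle replicate 1 or shZDHHC8 vehicle replicate 2. SFN (14-3-3 sigma) was higher by 0.28 and the transglutaminase TGM1 lower by -0.85 (limma adjusted p = 0.00144 and 0.000836). Of 7 genes that bind or cleave keratins, 2 were higher and 2 lower in the knockdown with vehicle, a count of 4 that was 2 without either shControl vehicle replicate or shZDHHC8 vehicle replicate 2. Under cisplatin 3 were higher and 2 lower in the knockdown. Both counts lie near the shares of all tested genes called, 51.7% with vehicle and 61.4% under cisplatin. Of 4 tested osteoblast markers, 2 were higher and 2 lower in the knockdown with vehicle, SPP1 by 0.91 and COL1A1 by -0.85 (limma adjusted p = 8.31e-06 and 0.000223). Under cisplatin 4 were higher in the knockdown, where 33.8% of all tested genes were, SPP1 by 1.70 (limma adjusted p = 3.02e-07). With cisplatin in shControl cells none was higher and 3 were lower, where 25.4% of all tested genes were lower.

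Of 14 keratin pseudogenes 3 were tested, and 1 was higher and 1 lower in the knockdown with vehicle (51.7% of all tested genes called). The KRT8 pseudogene KRT8P12 was at 5.71 and 5.35 FPKM in shZDHHC8 cells and 3.56 and 3.94 FPKM in shControl cells with vehicle, and at 7.88 and 8.23 against 4.08 and 4.67 FPKM under cisplatin, the opposite direction to KRT8 (limma adjusted p = 0.0016 and 6.82e-05). KRT8P3, the pseudogene listed first for sequence shared with KRT8, lay on the same side as KRT8 without passing (limma adjusted p = 0.0664 and 0.0702). It was at 1.01 and 1.27 FPKM in shZDHHC8 cells and 1.75 and 1.62 FPKM in shControl cells with vehicle, and at 1.13 and 0.792 against 1.682 and 1.1996 FPKM under cisplatin. KRT223P was the one called lower with vehicle, at 0.249 and 0.163 FPKM in shZDHHC8 cells and 1.345 and 1.147 FPKM in shControl cells (limma adjusted p = 0.000744).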
